A study of Homo sapiens with 15 samples.

Results

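12Z cells with RSAD2 knocked down and the PIK3CA mutant H1047R added were compared with 12Z cells that had neither change, which gives the net state of oncogene plus knockdown. 12Z is an immortalized epithelial line from an endometriotic lesion. The comparison used 6 of the 15 RNA sequencing libraries, chosen by their labels. The 3 libraries of the combined state came from cells given a pool of siRNAs against RSAD2 (siRSAD2) and a pBabe plasmid carrying PIK3CA*H1047R. The 3 control libraries came from cells given a pool of non-targeting siRNAs and the same plasmid without an insert. Plasmids were transfected 24 h after the siRNA. Serum was removed 4 h before vehicle, vehicle was given for 24 h, and RNA was collected 72 h after the siRNA. Every cell of both groups was thus serum-starved and none of them received insulin. A further 3 libraries, of siRSAD2 cells with the empty plasmid and vehicle, served to show what H1047R changed on top of the knockdown. Mutant cells with the non-targeting siRNA were not analysed here, so the oncogene was seen on the knockdown background alone. The plasmid was introduced by transient transfection of 1 line, and the study states independent experiments for the libraries of a condition. The control replicates are numbered 4 to 6 and the others 1 to 3.

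PIK3CA encodes p110-alpha, the catalytic subunit of phosphatidylinositol 3-kinase, which makes the membrane lipid PIP3 and so recruits and activates the kinase AKT. H1047R lies in the kinase domain, raises the enzyme's activity and is a frequent oncogenic substitution in endometrial epithelium and its tumours. RSAD2 encodes viperin, a radical SAM enzyme that interferon induces and that makes a chain-terminating nucleotide against viral RNA synthesis. Interferon-induced genes are switched on through a promoter element, the interferon-stimulated response element, that binds factors of the IRF family.

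The codon that the plasmid alters is shown in the reference, because the gene counts do not separate plasmid from chromosomal PIK3CA transcripts. It lies at hg38 chr3:179234266-179234328 on the plus strand, in the coding part of exon 21 of 21 (GENCODE 44). Capitals mark the reference codon that the substitution H1047R alters (protein positions counted from 1 at the first residue), at 179234296 to 179234298, which encodes H.

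PIK3CA: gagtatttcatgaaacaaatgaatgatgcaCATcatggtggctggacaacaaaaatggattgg

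Promoters of 5 interferon-induced genes that rose against the control are shown with that of RSAD2, because genes of this kind were among those that H1047R cells held above the knockdown alone. Of the 5, HERC5, DDX60 and IFI44 were also above the knockdown alone, whereas ISG15 and BST2 passed against the control only. Each is the last 160 bases before the RefSeq start (GRCh38.p14), 5′ to 3′ on the gene's strand, with capitals at matches on either strand to GAAANNGAA, the core of the interferon-stimulated response element. Neighbouring matches can overlap and then form 1 run of capitals.

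ISG15: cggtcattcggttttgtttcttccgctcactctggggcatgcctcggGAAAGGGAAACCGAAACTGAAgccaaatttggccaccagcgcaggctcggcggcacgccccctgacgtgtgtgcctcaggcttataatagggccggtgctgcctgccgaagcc

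HERC5: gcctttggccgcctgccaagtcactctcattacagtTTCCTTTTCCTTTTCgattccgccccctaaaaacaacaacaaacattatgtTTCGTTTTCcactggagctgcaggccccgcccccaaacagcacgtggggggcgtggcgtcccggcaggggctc

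DDX60: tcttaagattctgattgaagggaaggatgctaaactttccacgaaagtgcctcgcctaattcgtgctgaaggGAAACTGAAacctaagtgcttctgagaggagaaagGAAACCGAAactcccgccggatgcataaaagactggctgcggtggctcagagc

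BST2: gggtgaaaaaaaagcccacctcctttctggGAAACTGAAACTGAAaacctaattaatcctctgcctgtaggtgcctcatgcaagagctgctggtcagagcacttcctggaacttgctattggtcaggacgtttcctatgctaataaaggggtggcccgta

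IFI44: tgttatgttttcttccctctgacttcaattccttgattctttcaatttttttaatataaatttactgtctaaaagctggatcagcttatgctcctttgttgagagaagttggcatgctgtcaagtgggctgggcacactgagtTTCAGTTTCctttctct

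RSAD2: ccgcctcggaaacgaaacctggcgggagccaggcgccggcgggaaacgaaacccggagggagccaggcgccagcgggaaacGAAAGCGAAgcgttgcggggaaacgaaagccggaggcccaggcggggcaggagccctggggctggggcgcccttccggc

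These windows lie at chr1:1013337-1013496 (ISG15, plus strand), chr4:88456959-88457118 (HERC5, plus), chr4:168318753-168318912 (DDX60, minus), chr19:17405631-17405790 (BST2, minus), chr1:78649629-78649788 (IFI44, plus) and chr2:6865725-6865884 (RSAD2, plus). Within the full RefSeq promoter of 300 bases (250 before the start and 50 after it), the core matched 3 times in ISG15 and in HERC5, 2 times in DDX60 and in BST2, and 1 time in IFI44 and in RSAD2. The core was present in 8.29% of all 27305 promoters and in 34 of the 56 interferon-list promoters that matched the table (60.7%). It was present in 12 of 17 promoters of list genes that rose against the control (70.6%) and in 4 of 7 of those that fell (57.1%). Among promoters of list genes higher than with the knockdown alone, 8 of 12 held it (66.7%). HERC6, RIGI and CMPK2 rose without a match in their windows. The RSAD2 window lies inside the annotated span of that gene, 6865557 to 6898239. The RefSeq start used for it is thus downstream of the annotated start. Which start these cells use was not tested for any of these genes. The 1 match for RSAD2 and the absence of a match for CMPK2 describe the RefSeq starts used and no others. A match is a description of letters and not of a bound site.

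RSAD2, the target of the siRNA, spans hg38 chromosome 2 from 6865557 to 6898239 (identifier ENSG00000134321.12). It stood at 3.003, 3.16 and 3.69 CPM in the control libraries and at 0.624, 1.41 and 0.659 CPM with siRSAD2 and H1047R. CPM values here are counts scaled to a TMM-adjusted library of 1 M. The raw counts were 84, 88 and 86 against 15, 56 and 13. No library of the combined state reached the control level, and the second H1047R library had the most RSAD2 of its group. The log2 difference was -1.79 ± 0.36 (SE, n = 3 libraries per group throughout, edgeR quasi-likelihood test with Benjamini-Hochberg adjustment over all genes, adjusted p = 3.46e-04). With siRSAD2 alone the libraries held 0.691, 0.0768 and 0.208 CPM, and the difference of 1.496 ± 0.453 from there to the combined state, on the log2 scale, did not pass (edgeR adjusted p = 0.114).

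PIK3CA (ENSG00000121879.5, chromosome 3, 179148114 to 179240093, plus strand) measured 99.5, 109 and 101 CPM in the control libraries and 212, 199 and 223 CPM with H1047R. The groups lay far apart, at a log2 difference of 1.03 ± 0.05 (edgeR adjusted p = 1.38e-20). With siRSAD2 alone PIK3CA was at 92.1, 84.5 and 90.5 CPM, lower than the control (-0.21 ± 0.05, edgeR adjusted p = 0.00152). The step from knockdown to combined state was therefore larger than the net change, at 1.25 ± 0.05 (edgeR adjusted p = 9.89e-23). In all 9 libraries both genes went with the labels.

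The labelled epithelial origin was checked against markers. The keratin KRT8 was at a mean of 1129 CPM in the control, whereas the epithelial adhesion genes EPCAM and CDH1 averaged 0.2745 and 0.776 CPM, and 8 of 17 measured epithelial markers stayed below 1 CPM in the control. The stromal genes VIM and COL3A1 averaged 2372 and 2105 CPM, beside the keratins. Summed over 8 measured immune markers the level was 4.47 to 6.61 CPM in the control and 4.75 to 5.37 CPM in the combined state. Over 10 endothelial markers it was 8.47 to 11.3 and 12.8 to 14.1 CPM, where KDR alone passed. In bulk RNA, fewer cells expressing a gene and less RNA per cell cannot be told apart.

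Depth was 24.3 to 29.2 M gene counts per control library and 19.5 to 39.7 M per library of the combined state. The groups also differed in strand and mapping. The share of stranded gene counts on the forward strand, which should be small in these reverse-stranded libraries, was 5.85 to 5.87% in the control and 6.19 to 6.24% in the combined state. The difference of 0.359 percentage points had an exact permutation p of 0.1 (2-sided), the smallest that 3 against 3 libraries allow. Read pairs outside genes made up 3.58 ± 0.0932% and 4.48 ± 0.105% (SD, n = 3), and unmapped pairs 4.22 ± 0.111% and 5.15 ± 0.26%, in the same order and again without overlap. No library of either group had a forward share inside the range of the other, so no comparison within 1 range of shares could be made, and the part of this difference in each result below was not tested. A fit that holds the share as a covariate, taking its slope from the spread inside the 5 groups, is given beside the counts of each gene list. Most of that spread lay in insulin-treated libraries outside the comparison. These ran from 5.772 to 6.168% with siRSAD2 and empty plasmid, and from 6.106 to 6.499% with siRSAD2 and H1047R. The vehicle groups each spanned far less, and whether the slope holds for them was not tested. The third library of siRSAD2 alone stood apart from its group, with 8.31% unmapped pairs and 9.03 CPM of the leukocyte gene PTPRC against 0.715 to 1.59 CPM in the other 8 libraries, so the steps from this group were also fitted without it. Without it the means of siRSAD2 alone given below for single genes moved by 0.0802 to 4.36%, and that of C3 by 12%.

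**Figure D1:**
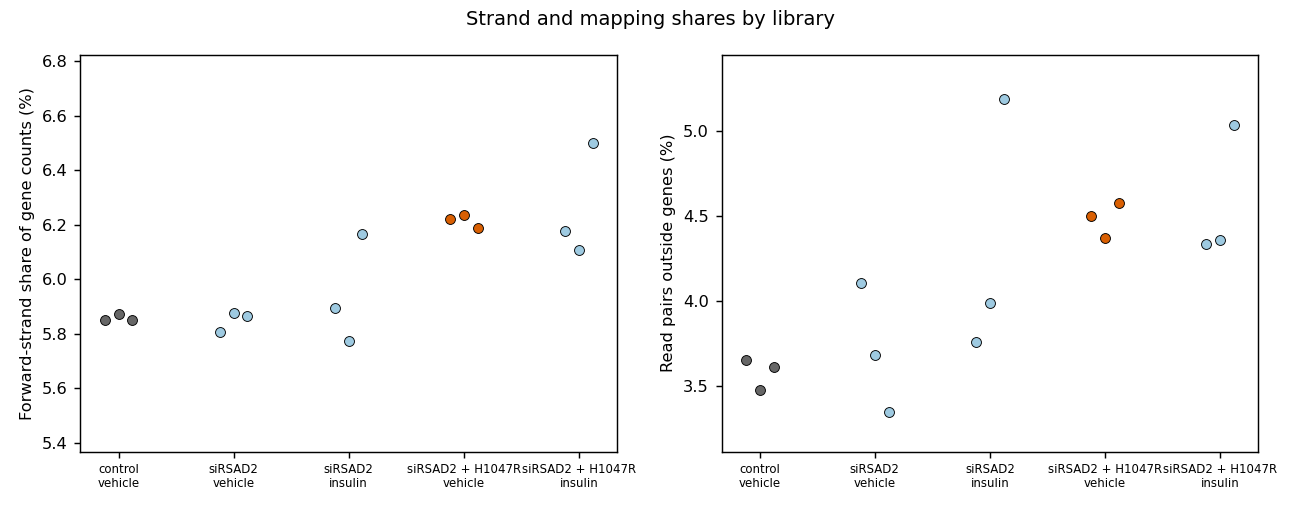
Forward-strand share of stranded gene counts (left) and read pairs outside genes (right), in percent, for all 15 libraries (points) in 5 groups (horizontal axis); the vertical axes do not start at 0. The siRSAD2 H1047R vehicle libraries (orange) lie at 6.19 to 6.24%, above the control libraries (grey) at 5.85 to 5.87%, and only 1 library without H1047R passes 6%.

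Against the control, 4831 of 23184 genes differed (20.8%), 2373 higher (10.2%) and 2458 lower (10.6%). Of 14860 protein-coding genes, 13.6% were higher and 15.8% lower. Most shifts were small, with a median absolute log2 change of 0.34 among these genes, while 570 rose and 88 fell at least 2-fold. The large rises were mostly of scarcely expressed genes: 367 had a mean below 1 CPM, of which 142 were lncRNAs. Among those 367, 80 were also called with the forward-strand share as covariate, whereas 141 of 203 rises at or above 1 CPM were. Over all genes the covariate left 2162 calls, 1057 higher and 1105 lower. Of these, 2036 were shared with the main fit and all of those kept their direction. The accounts below therefore stay with genes of at least 1 CPM unless a list includes others. A list's counts with the covariate are to be read beside the 1057 and 1105 of 23184 genes in that fit. The 10.2% and 10.6% belong to the main fit.

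The 8 largest rises among protein-coding genes had log2 changes of 2.03 to 2.49. DMBT1 (chromosome 10, 122560665 to 122643736), a scavenger receptor of mucosal surfaces, went from 1.29, 1.44 and 1.33 CPM to 8.32, 6.54 and 8.31 CPM (log2 change 2.49 ± 0.17, edgeR adjusted p = 6.42e-16). MMP1, the interstitial collagenase, went from 1.29, 1.15 and 1.03 to 4.95, 6.09 and 6.39 CPM (2.32 ± 0.22). The calcium-binding annexin ANXA10 measured 11.6, 13.1 and 11.4 CPM in the control and 56.5, 50.9 and 51.0 CPM in the combined state (2.13 ± 0.08). ANGPTL4, an inhibitor of lipoprotein lipase, rose by 2.11 ± 0.30 and CEND1, a neuronal regulator of cell cycle exit, by 2.03 ± 0.22, both from below 1 CPM on average. TMEM63C, a membrane channel protein, rose by 2.06 ± 0.32, from a mean of 0.377 to 1.63 CPM. The largest rises and falls named here were chosen among calls whose libraries did not overlap between the groups, which held for 97.8% of all calls. The rise was already present with siRSAD2 alone, where DMBT1 averaged 8.86 CPM, MMP1 5.64 CPM and ANXA10 52.9 CPM, and their steps from the knockdown were -0.21 ± 0.13, 0.04 ± 0.18 and -0.00 ± 0.07 (edgeR adjusted p = 0.55, 0.966 and 0.994).

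SNX32 and JSRP1 rose by 2.15 ± 0.37 and 2.05 ± 0.38 on the log2 scale, from means of 0.513 and 0.583 CPM. Their calls moved with strand. With unstranded counts the changes were 0.35 (edgeR adjusted p = 0.67) and 1.76 (0.371), and with the forward-share covariate 1.06 (0.147) and 1.13 (0.143). GABARAP, an ATG8 family protein of autophagosomes, rose by 1.08 ± 0.26, from 6.79, 7.05 and 6.44 CPM to 12.9, 16.6 and 13.1 CPM, but changed by -0.12 with unstranded counts (edgeR adjusted p = 0.915). All 3 calls are uncertain.

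The largest falls included abundant transcripts and were already present with the knockdown alone. FSTL1 (chromosome 3, 120392293 to 120451016, minus strand), a secreted glycoprotein that binds BMP and activin family ligands, measured 603, 641 and 629 CPM in the control and 163, 159 and 167 CPM in the combined state (log2 change -1.94 ± 0.05, edgeR adjusted p = 1.05e-32). LAPTM4A, a lysosomal membrane protein, went from 439, 452 and 449 to 141, 142 and 137 CPM (-1.67 ± 0.05). The gap junction protein GJA1 went from 294, 289 and 288 to 95.4, 95.7 and 101 CPM (-1.58 ± 0.05). Complement C3 fell by 1.59 ± 0.13 on the log2 scale, from 34.7 to 44.9 CPM down to 12.5 to 13.9 CPM, and the fibroblast protease FAP by 1.42 ± 0.15, from 10.2 to 3.86 CPM on average. CXCL12, the chemokine that binds CXCR4, went from 97.6, 97.7 and 95.5 to 31.3, 35.1 and 32.6 CPM (-1.55 ± 0.07). DOK7, an adaptor of the muscle kinase MuSK, fell by 1.53 ± 0.36, from a mean of 1.78 to 0.601 CPM. The other levels with siRSAD2 alone averaged 147 CPM for FSTL1, 125 CPM for LAPTM4A, 91.4 CPM for GJA1, 13.7 CPM for C3 and 33.8 CPM for CXCL12, and no step of these 5 genes passed. In absolute amount, the heavy chain of cytoplasmic dynein, DYNC1H1, was among the largest rises, from a mean of 1018 to 1299 CPM (0.35 ± 0.06).

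**Figure D2:**
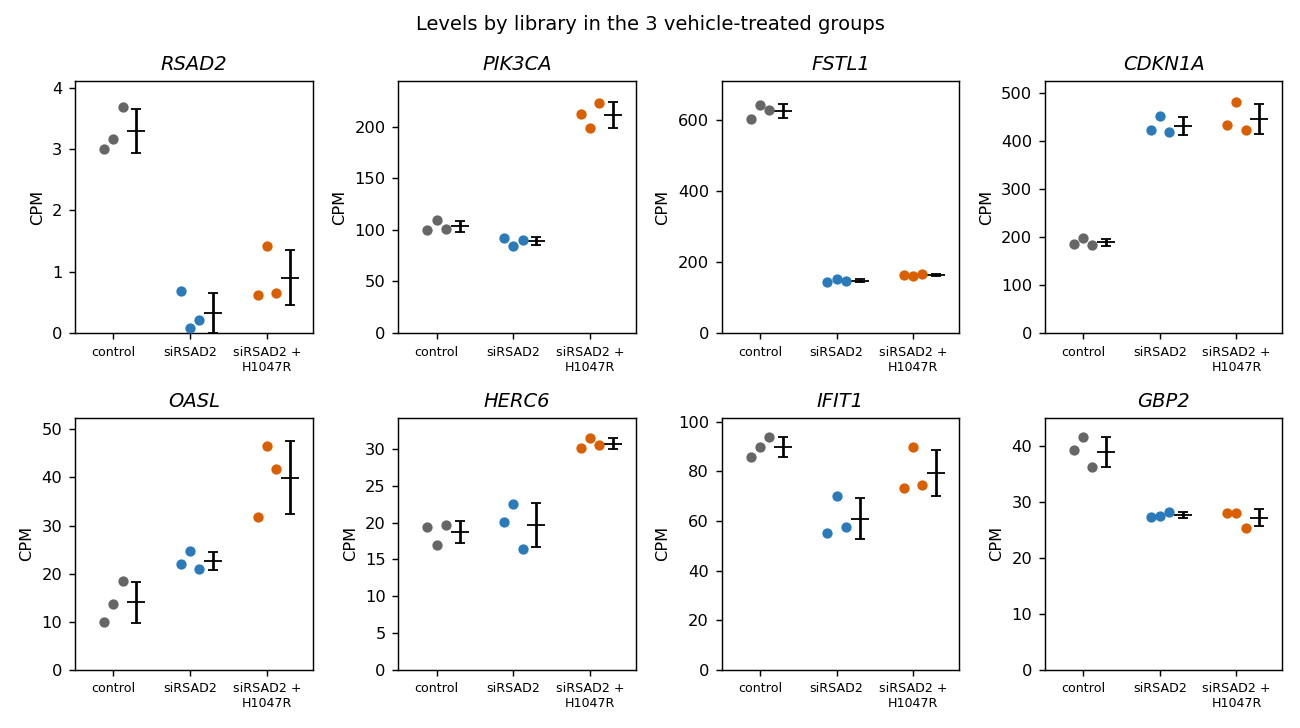
TMM-scaled CPM (vertical axes, from 0) of 8 genes in the control, siRSAD2 and siRSAD2 with H1047R libraries (horizontal axis), all vehicle-treated; points are libraries and the bar beside them is the mean with SD, n = 3. FSTL1 and CDKN1A have moved in both siRSAD2 groups alike, PIK3CA, HERC6 and OASL are highest with H1047R, IFIT1 falls with siRSAD2 and lies between 73.5 and 90.0 CPM with H1047R, and GBP2 is lower in both siRSAD2 groups.

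Set directly against siRSAD2 alone, the combined state differed in 251 of 23184 genes (1.08%), 118 higher (0.509%) and 133 lower (0.574%). It shares the combined-state libraries with the comparison above. Beside the plasmid, the groups differed in forward-strand share, at 5.81 to 5.88% with siRSAD2 alone and 6.19 to 6.24% with H1047R, so plasmid and share cannot be told apart in this step. PIK3CA led the rises by p. The largest falls were of PRR36 (-0.74 ± 0.17), the neuronal tubulin TUBB4A (-0.55 ± 0.11), the secreted scavenger receptor SSC5D (-0.50 ± 0.11) and the homeobox factor HOXA7 (-0.45 ± 0.09). HOXA7 measured 32.2, 33.4 and 30.3 CPM in the control, 30.7, 29.5 and 30.3 CPM with siRSAD2 and 22.3, 23.2 and 20.3 CPM with H1047R, and was lower with H1047R than in either other group, although its fall against the control did not pass with the covariate (edgeR adjusted p = 0.17). TUBB4A went the other way in each step, from 8.77 CPM in the control to 14.1 and back to 9.57 CPM on average, and its net change did not pass (0.13 ± 0.11, edgeR adjusted p = 0.469). The number of calls in this step moved with single libraries. Leaving out the third siRSAD2 library left 135 calls, leaving out H1047R library 1, 2 or 3 left 56, 140 or 100, and the forward-share covariate left 6, which were PIK3CA, IFI44, HERC6, HERC5, the amino acid transporter chain SLC3A2 and the phospholipase PLAAT4. No other step named here passed with the covariate.

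Interferon response genes changed in both directions against the control. Of 68 measured members, 21 rose (30.9%, beside 10.2% of all genes), 10 fell (14.7%, beside 10.6% of all genes) and 37 did not pass, with a median log2 change of 0.13 beside 0.03 over all genes. The interferon, unfolded protein, endoplasmic reticulum, ribosomal, hypoxia and matrix lists take up subjects that the study raised with these or sister samples, so the direction of their counts is no independent evidence. The genes that rose were mainly antiviral effectors and RNA sensors. HERC5, the ligase that attaches ISG15 to proteins, went from 12.7, 13.5 and 16.0 CPM to 28.1, 31.9 and 31.8 CPM (1.13 ± 0.08, edgeR adjusted p = 1.2e-14). Its neighbour and relative HERC6 went from 19.4, 17.0 and 19.7 to 30.2, 31.6 and 30.5 CPM (0.72 ± 0.08). Both groups were well apart.

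OASL, an inactive relative of the oligoadenylate synthetases that boosts RIG-I signalling, measured 9.97, 13.6 and 18.5 CPM in the control and 31.7, 46.6 and 41.7 CPM in the combined state (1.53 ± 0.20). OAS2, one of the enzymes that make the oligoadenylates which activate RNase L, went from 18.77, 14.28 and 15.02 to 28.72, 42.00 and 24.99 CPM (1.01 ± 0.29). The helicase DDX60 went from 40.1, 43.3 and 41.1 to 67.1, 77.6 and 76.5 CPM (0.83 ± 0.09). The spread between libraries was wide for OASL and OAS2 and narrow for DDX60, but none of the 3 overlapped between groups.

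ISG15, the ubiquitin-like modifier, went from 24.1, 19.0 and 18.9 to 36.21, 38.01 and 33.87 CPM (0.80 ± 0.23), and BST2, the tetherin that holds budding virus at the membrane, from 3.897, 2.553 and 1.759 to 8.12, 7.93 and 8.52 CPM (1.56 ± 0.27). RIGI, the cytosolic RNA sensor, rose by 0.73 ± 0.09. CMPK2, a mitochondrial nucleotide kinase that lies beside RSAD2 in the genome, rose by 0.96 ± 0.33 while RSAD2 itself stayed below the control. With the forward-share covariate OAS2, ISG15 and CMPK2 did not pass (log2 changes 1.01, 0.59 and 1.34, edgeR adjusted p = 0.255, 0.413 and 0.0871).

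The members that fell included genes of antigen presentation and guanylate-binding proteins. GBP2, 1 of the latter, went from 39.3, 41.5 and 36.2 to 28.0, 28.1 and 25.4 CPM (-0.52 ± 0.08). HLA-E, a non-classical heavy chain of MHC class I, went from 47.4, 56.1 and 49.8 to 42.4, 40.4 and 42.1 CPM (-0.30 ± 0.07). In neither gene did the groups overlap. GBP1 fell by 0.30 ± 0.07, the DNA sensor IFI16 by 0.27 ± 0.06 and the immunoproteasome subunit PSMB8 by 0.26 ± 0.08. Exceptions to this division were the peptide transporter TAP1 (0.34 ± 0.08) and GBP3 (0.19 ± 0.07), which rose. Of these 7 genes only GBP2 passed with the covariate, where the others had edgeR adjusted p from 0.0515 (HLA-E) to 0.44 (IFI16).

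**Figure D3:**
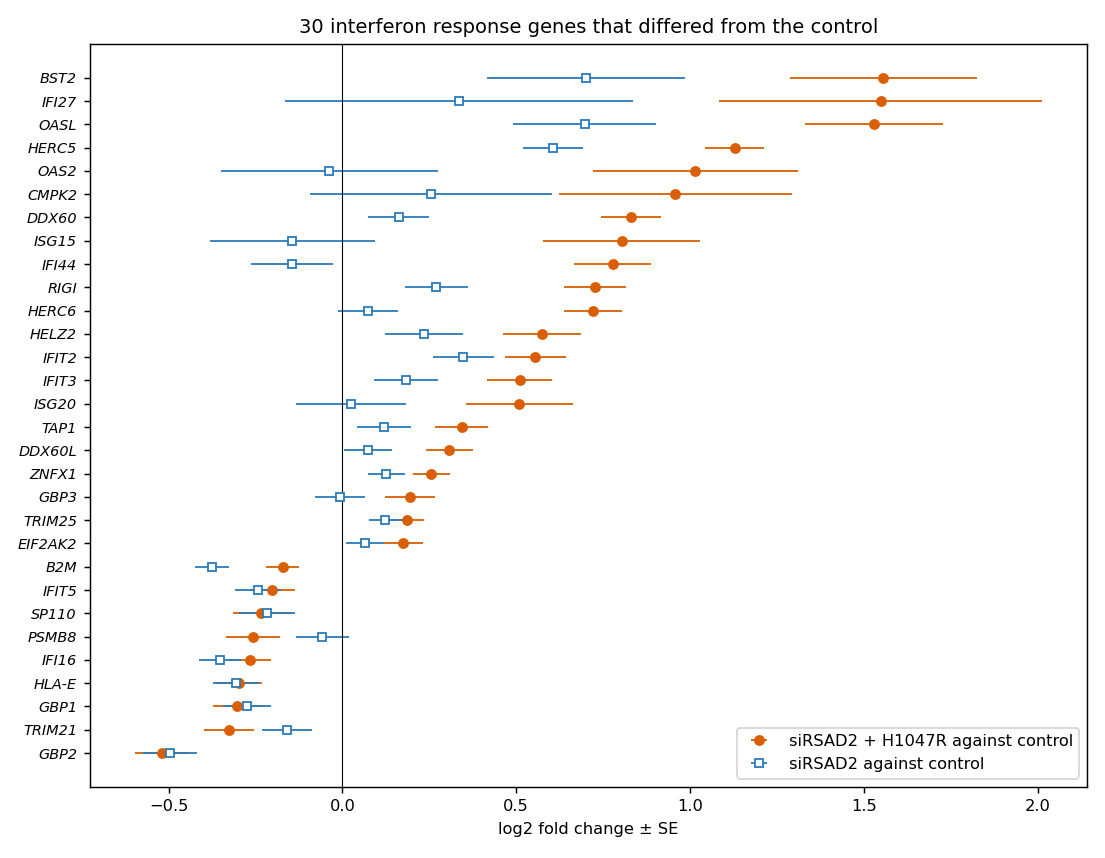
Log2 fold change with SE (horizontal axis) of 30 of the 31 interferon response genes that passed against the control (vertical axis), for siRSAD2 with H1047R (filled circles) and siRSAD2 alone (open squares), both against the same 3 control libraries. The 21 genes from EIF2AK2 up to BST2 lie further right with H1047R than with siRSAD2 alone, and the 9 from GBP2 up to B2M lie below 0 in both.

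Relative to siRSAD2 alone, 13 of the 68 interferon response genes were higher (0.509% of all genes) and none was lower in edgeR or DESeq2 (2 were lower at an unadjusted p under 0.05 in each tool). They differed in where they stood against the control. HERC5, HERC6, DDX60, IFI44 and RIGI were raised above the control as well. IFI44 had 8.90, 10.6 and 9.87 CPM in the control, 9.51, 9.99 and 7.08 CPM with siRSAD2 and 14.7, 18.2 and 17.2 CPM with H1047R (step 0.92 ± 0.11, edgeR adjusted p = 1.48e-06).

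IFIT1, PARP9, PARP14 and EPSTI1 had fallen with the knockdown and stood between both levels in the combined state. IFIT1, which binds viral RNA lacking a host cap, had 85.7, 89.9 and 93.8 CPM in the control, 55.1, 70.2 and 57.6 CPM with siRSAD2 and 73.5, 90.0 and 74.7 CPM with H1047R. The step was 0.39 ± 0.09 (edgeR adjusted p = 0.0351), and what remained against the control was -0.17 ± 0.08 (0.179). PARP9 had 49.3, 49.7 and 48.6, then 31.01, 39.23 and 29.96, then 43.5, 46.2 and 40.5 CPM in the same order. Its step was 0.39 ± 0.08. Without the third siRSAD2 library all 4 were still below the control in siRSAD2 alone, and of their steps PARP14 passed (edgeR adjusted p = 0.0415) and IFIT1, PARP9 and EPSTI1 did not (0.09, 0.0642 and 0.0853).

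IFIH1, USP18 and SP100 also stepped up, by 0.35, 0.58 and 0.23, with net changes that did not pass. B2M, the light chain of MHC class I, regained only part of its level: it measured 484, 560 and 524 CPM in the control, 381, 426 and 402 CPM with siRSAD2 and 479, 464 and 448 CPM in the combined state, a step of 0.20 ± 0.05 and a net difference of -0.17 ± 0.05. For HLA-E, with 41.2, 42.1 and 40.8 CPM in siRSAD2 alone, no step was detectable (0.008 ± 0.067, edgeR adjusted p = 0.984). The steps of IFIH1, USP18, SP100 and B2M did not pass without the third siRSAD2 library (edgeR adjusted p = 0.141, 0.192, 0.17 and 0.0812), and the net change of B2M did not pass with the covariate (0.0519).

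The count of interferon genes above siRSAD2 alone moved with single libraries. It was 4 without the second H1047R library, which had the most OASL, OAS2 and IFIT1 of its group, and 7 without the first. It was 6 without the first or the third siRSAD2 library, 3 with the forward-share covariate (IFI44, HERC6 and HERC5) and 24 with DESeq2. None of the list was lower than siRSAD2 alone in any of these fits. Against the control the covariate left 12 higher and 2 lower members.

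**Figure D4:**
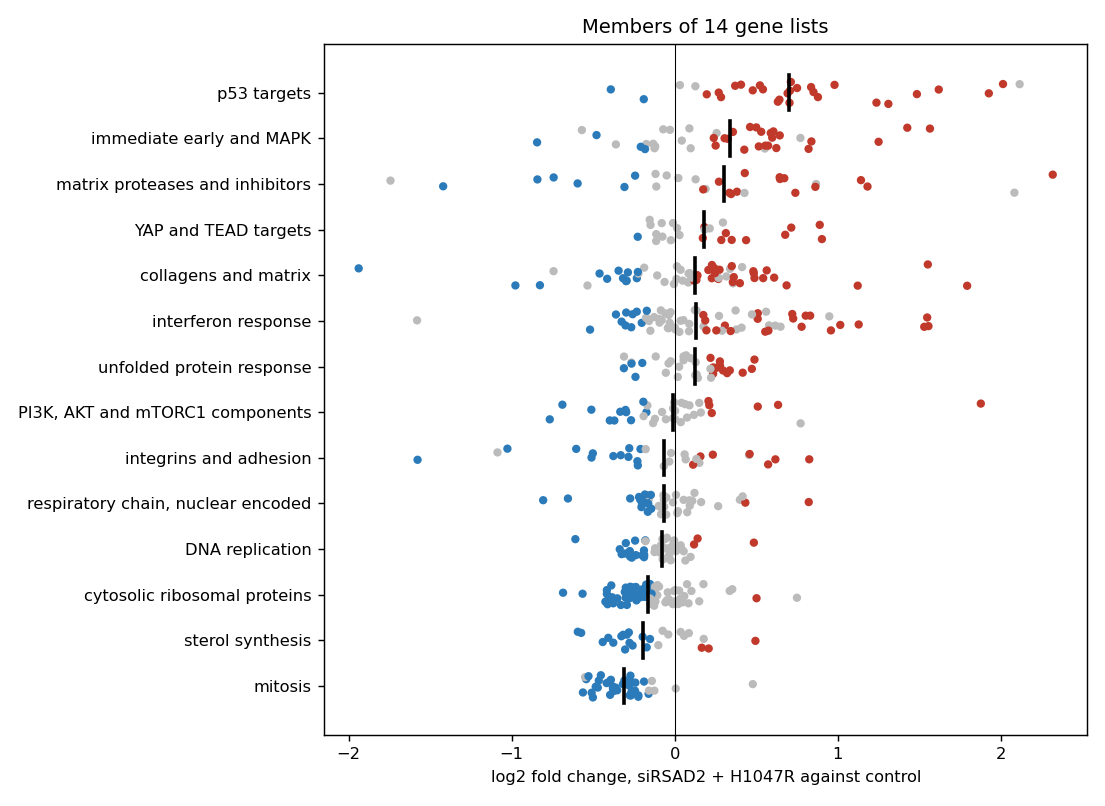
Log2 fold change of siRSAD2 with H1047R against the control (horizontal axis) for the measured members (points) of 14 gene lists (vertical axis); red and blue points passed at an adjusted p of 0.05 in edgeR, higher and lower, grey did not, and the black bar is the list's median. The p53 targets have the highest median, 0.70, and the mitosis genes the lowest, -0.31.

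Targets of the tumour suppressor p53 had the largest share of higher members of the 30 lists. Of 30 measured members, 25 were higher (83.3%), 2 lower (6.67%) and 3 did not pass, with a median of 0.70. The shares of all genes were 10.2% and 10.6%. With siRSAD2 alone against the same control, 24 were higher and 2 lower (median 0.51). CDKN1A, which encodes the inhibitor p21 of cyclin-dependent kinases, went from 186, 198 and 184 CPM to 434, 480 and 424 CPM (1.24 ± 0.06, edgeR adjusted p = 1.41e-15). MDM2, the ubiquitin ligase that limits p53, went from 146, 141 and 138 to 345, 365 and 343 CPM (1.31 ± 0.05). BTG2, an antiproliferative deadenylase cofactor, rose by 1.49 ± 0.07, the stress cytokine GDF15 by 1.62 ± 0.10, the BH3-only death protein BBC3 by 0.98 ± 0.14 and the death receptor FAS by 0.84 ± 0.08. The DNA polymerase POLK (-0.39 ± 0.07) and CCNG1 (-0.19 ± 0.05) were the lower members. MDM2 alone also stepped up from siRSAD2, by 0.19 ± 0.05 (edgeR adjusted p = 0.0333, and 0.269 without the third siRSAD2 library). With the forward-share covariate 24 were higher and none lower in edgeR (2 lower at an unadjusted p under 0.05).

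Mitosis genes fell. Of 40 measured, 34 were lower and none higher in edgeR or DESeq2 (1 and 0 higher at an unadjusted p under 0.05), with a median of -0.31. Lower members made up 85% of the list, beside 10.6% of all genes. In siRSAD2 alone 33 were already lower than the control (median -0.32). CKS2, a subunit of the cyclin-dependent kinases, went from 176, 190 and 184 to 125, 124 and 123 CPM (-0.56 ± 0.05, edgeR adjusted p = 1.55e-12). The cyclin CCNA2 went from 235, 249 and 244 to 166, 165 and 168 CPM (-0.54 ± 0.05). The kinase PLK1 went from 152, 147 and 159 to 108, 115 and 107 CPM (-0.47 ± 0.05) and stepped down from siRSAD2 as well (-0.20 ± 0.05, edgeR adjusted p = 0.027, and 0.128 without the third siRSAD2 library). The proliferation antigen MKI67 fell by 0.31 ± 0.06 on the log2 scale. With the covariate 26 were lower, and MKI67 did not pass (edgeR adjusted p = 0.111). The CKS2 window of 160 bases (GRCh38.p14 chr9:89311035-89311194, plus strand) is shown since many promoters of this list carry TTTGAA, the cell cycle homology region through which the DREAM complex represses these genes, here in capitals as read on the opposite strand.

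CKS2: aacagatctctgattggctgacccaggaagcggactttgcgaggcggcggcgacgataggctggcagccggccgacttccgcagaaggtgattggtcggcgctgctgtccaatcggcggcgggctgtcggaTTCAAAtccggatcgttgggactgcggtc

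Searched on both strands of the 300 bases, TTTGAA was in 15.4% of all 27305 promoters, in 25 of 34 matched mitosis promoters (73.5%) and in 21 of the 29 whose gene fell (72.4%). The CCNA2 window held no exact match to TTTGAA, and variants of the element were not searched. A sterol regulatory core, TCACNCCAC, was in 1 of 18 sterol synthesis promoters (5.56%) and in 1.15% of all.

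DNA replication genes were less affected in size, with 15 of 43 lower (34.9%), 3 higher (6.98%) and a median of -0.08. Among all genes 10.6% were lower and 10.2% higher. The knockdown alone had 16 lower and 3 higher against the control. The clamp loader subunit RFC5 fell by 0.61 ± 0.05 on the log2 scale, the ligase LIG1 by 0.34 ± 0.05 and the helicase subunit MCM5 by 0.33 ± 0.05. The S-phase cyclin CCNE1 rose by 0.49 ± 0.11. With the covariate 7 were lower and 1 higher.

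The PI3K pathway's own components changed in both directions. Of 37 measured members, 11 were lower (29.7%) and 6 higher (16.2%), beside 10.6% and 10.2% of all genes and 15.8% and 13.6% of protein-coding genes. The median was -0.01, and with the covariate 6 were lower and 3 higher. PIK3CB, the sister catalytic subunit p110-beta, went from 61.4, 57.6 and 65.1 CPM to 33.5, 37.0 and 37.7 CPM (-0.77 ± 0.06, edgeR adjusted p = 6.76e-13), with 36.3, 32.4 and 32.7 CPM already in siRSAD2 alone.

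Inositol phosphatases that act on the lipid products of the kinase were higher. INPP5D, which encodes SHIP1, went from 0.965, 0.827 and 1.42 to 4.08, 4.07 and 3.45 CPM (1.88 ± 0.20), and INPP4B rose by 0.63 ± 0.06. SGK1, a kinase of the AKT family, rose by 0.51 ± 0.05. The regulatory subunit PIK3R1 changed by -0.03 ± 0.07 and did not pass.

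From siRSAD2 to the combined state GSK3A and AKT1S1 of this list passed, both lower, and none was higher in edgeR or DESeq2 (3 and 2 at an unadjusted p under 0.05). GSK3A, a kinase that AKT inhibits, had 67.7, 69.8 and 67.1 CPM in the control, 68.3, 74.1 and 64.7 CPM with siRSAD2 and 49.8, 58.6 and 53.4 CPM with H1047R (step -0.35 ± 0.07). AKT1S1, an inhibitory mTORC1 subunit that AKT phosphorylates, was lower than siRSAD2 alone by 0.26 ± 0.06 with a net change of -0.01 ± 0.06. Without the third siRSAD2 library GSK3A passed and AKT1S1 did not (edgeR adjusted p = 0.00208 and 0.0642), and with the covariate the net fall of GSK3A did not pass (0.101). FOXO targets and insulin-repressed genes, which active AKT keeps low, had 7 higher (23.3%) and 6 lower (20%) of 30, beside 10.2% and 10.6% of all genes, and 5 and 3 with the covariate. IRS1, the insulin receptor adaptor, rose by 0.64 ± 0.06 and PIK3IP1, an inhibitor of p110, fell by 0.91 ± 0.10, while TXNIP, an inhibitor of glucose uptake, rose by 0.24 ± 0.05 and stepped up by 0.20 ± 0.05 (edgeR adjusted p = 0.0303, and 0.108 without the third siRSAD2 library).

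Immediate early and MAPK genes were mostly higher, 22 of 40 (55%) against 4 lower (10%), with a median of 0.34. The shares of all genes were 10.2% and 10.6%. Against the same control siRSAD2 alone had 20 higher and 5 lower (median 0.35). The feedback phosphatase DUSP6 went from 71.1, 76.1 and 78.5 to 114, 111 and 117 CPM (0.60 ± 0.05), and the feedback inhibitors SPRY1 and SPRY4 rose by 0.84 ± 0.09 and 0.64 ± 0.06. The EGF receptor ligands AREG, TGFA and HBEGF rose by 1.43 ± 0.25, 1.56 ± 0.42 and 0.82 ± 0.09.

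EGR1, a serum-inducible zinc finger factor, went against the list. It had 64.4, 58.5 and 60.7 CPM in the control, 27.2, 25.6 and 21.5 CPM with siRSAD2 and 33.3, 35.5 and 33.3 CPM with H1047R, a net fall of 0.84 ± 0.07 on the log2 scale and a step up of 0.46 ± 0.07 (edgeR adjusted p = 0.00021). The stress factor ATF3 rose in each step, at 7.29, 6.15 and 5.84, then 10.16, 10.53 and 10.45, then 14.9, 16.1 and 14.8 CPM (net 1.25 ± 0.10). The AP-1 member FOSL1 rose by 0.50 ± 0.06 and was lower than siRSAD2 alone by 0.26 ± 0.06. Without the third siRSAD2 library the steps of EGR1 and ATF3 passed and that of FOSL1 did not (edgeR adjusted p = 0.00822, 0.00662 and 0.0686). With the covariate 19 of the list were higher and 4 lower.

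YAP and TEAD targets had 10 of 24 higher (41.7%) and 1 lower (4.17%), beside 10.2% and 10.6% of all genes (list median 0.18). With the covariate 9 were higher and 1 lower (median 0.07). In siRSAD2 alone 10 were higher and 2 lower than the control. CCN2, a matricellular growth factor, went from 45.5, 39.9 and 44.5 to 80.7, 79.4 and 82.8 CPM (0.90 ± 0.06), and NT5E, the ectonucleotidase CD73, rose by 0.71 ± 0.05.

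Genes of the extracellular matrix changed in both directions. Of 58 collagens and matrix genes, 25 were higher (43.1%) and 12 lower (20.7%), beside 10.2% and 10.6% of all genes, with a median of 0.13. With the covariate 17 were higher and 10 lower. HAS2, a hyaluronan synthase, went from 2.97, 2.91 and 4.16 to 11.1, 11.1 and 12.5 CPM (1.79 ± 0.13), and THBS1 and COL12A1 rose by 0.48 ± 0.07 and 0.56 ± 0.05. The small proteoglycans decorin and lumican fell, DCN by 0.98 ± 0.08 and LUM by 0.83 ± 0.05 on the log2 scale, and the collagen-binding SPARC fell from a mean of 3467 to 2601 CPM (-0.41 ± 0.04).

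Of 30 matrix proteases and inhibitors, 14 were higher (46.7%) and 6 lower (20%), beside 10.2% and 10.6% of all genes (list median 0.30). With the covariate 14 were higher and 5 lower. The knockdown alone had 15 higher and 7 lower against the control. SERPINE2, an inhibitor of thrombin and urokinase, went from 860, 898 and 870 CPM to a mean of 1934 CPM (1.14 ± 0.04), and TFPI2 rose by 1.18 ± 0.05. Urokinase itself, PLAU, rose by 0.65 ± 0.06. The gelatinase MMP2 fell by 0.84 ± 0.06 and its inhibitor TIMP2 by 0.60 ± 0.05.

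Among 29 integrins and adhesion genes 7 were higher (24.1%) and 12 lower (41.4%), beside 10.2% and 10.6% of all genes, with a median of -0.07. With the covariate 4 were higher and 9 lower (median -0.17). ITGA2, the collagen receptor subunit, went from 96.1, 94.1 and 101 to 171, 170 and 175 CPM (0.82 ± 0.05) and was also above siRSAD2 alone (0.20 ± 0.05), whereas ITGB3 fell by 1.03 ± 0.07. The adaptor ZYX fell by 0.28 ± 0.06 on the log2 scale and by as much in the step from siRSAD2 (-0.28 ± 0.06). Without the third siRSAD2 library neither step passed (edgeR adjusted p = 0.149 for ITGA2 and 0.0653 for ZYX). In the TGF-beta and activin list 6 were higher (18.8%) and 5 lower (15.6%) of 32, beside 10.2% and 10.6% of all genes. With the covariate 1 was higher and 2 lower, beside 1057 and 1105 of all 23184 genes. Members were LTBP1, which stores latent TGF-beta in matrix, at 0.55 ± 0.08 and the effector SMAD3 at -0.28 ± 0.05.

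Of 31 inflammatory cytokines and their regulators 7 were higher (22.6%) and 5 lower (16.1%), beside 10.2% and 10.6% of all genes, and 5 and 3 with the covariate. PTX3, a soluble pattern recognition molecule, went from 31.2, 31.6 and 30 to 91.2, 80.3 and 94.7 CPM (1.51 ± 0.07). The neutrophil chemokine CXCL8 went from 2.79, 2.77 and 2.36 to 6.45, 5.91 and 6.49 CPM (1.24 ± 0.16), IL11 rose by 0.95 ± 0.13 and TNFAIP3, a brake on NF-kB, by 0.72 ± 0.08. Besides CXCL12, the monocyte chemokine CCL2 fell by 0.34 ± 0.11, a call that did not pass with the covariate (edgeR adjusted p = 0.412). IL24 was listed at 0.25 to 0.278 CPM in the combined state and at 0 in 2 control libraries. No member of this list passed against siRSAD2 alone in edgeR or DESeq2, where 3 and 2 had an unadjusted p under 0.05.

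Of 25 sterol synthesis genes, 15 were lower (60%) and 3 higher (12%), beside 10.6% and 10.2% of all genes (list median -0.20). The knockdown alone had 15 lower and 2 higher against the control (median -0.22). FDPS, which makes farnesyl diphosphate, went from 448, 456 and 446 to 294, 308 and 292 CPM (-0.59 ± 0.04), and HMGCS1, at the entry to the mevalonate pathway, fell by 0.57 ± 0.05 on the log2 scale. CYP51A1, the lanosterol demethylase, stood out with 11.9, 9.67 and 10.6 CPM in the control and 15.90, 14.97 and 14.35 CPM in the combined state (0.49 ± 0.10), and a step of 0.56 ± 0.10, which also passed without the third siRSAD2 library, while its net rise did not pass with the covariate (edgeR adjusted p = 0.0174 and 0.0764). Of 21 fatty acid synthesis genes 9 were lower (42.9%) and 2 higher (9.52%), with a median of -0.10, and 6 and 3 with the knockdown alone. SCD, the stearoyl-CoA desaturase, fell by 0.60 ± 0.05 and the acyl-CoA ligase ACSL4 by 0.76 ± 0.05 on the log2 scale. With the covariate 14 sterol and 6 fatty acid genes were lower and 1 fatty acid gene higher.

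Of 79 cytosolic ribosomal protein genes 44 were lower (55.7%) and 1 higher (1.27%), with a median of -0.16. Among all genes 10.6% were lower and 10.2% higher. With the covariate 40 were lower (median -0.23). In siRSAD2 alone 52 were lower than the control (median -0.23). RPL7 went from 516, 562 and 532 to 395, 426 and 385 CPM (-0.42 ± 0.05) and the elongation factor EEF1A1 from a mean of 5267 to 3732 CPM (-0.50 ± 0.05). RPS23 changed by -0.57 ± 0.05 and by 0.17 with unstranded counts, where it did not pass (edgeR adjusted p = 0.348). RPL37A, at 572, 594 and 560, then 447, 506 and 500, then 569, 621 and 542 CPM, had fallen with siRSAD2 and had a net change of 0.00 ± 0.05 with H1047R. It was 1 of 5 members above siRSAD2 alone (6.33%, beside 0.509% of all genes), with RPS14, RPS15A, RPS18 and RPL9. Of these RPL9 did not pass without the third siRSAD2 library (edgeR adjusted p = 0.053). Of 44 ribosome biogenesis genes 5 rose and 5 fell, 11.4% each beside 10.2% and 10.6% of all genes, and 1 was lower with the covariate. Many ribosomal protein genes have near-identical pseudogenes, to which their reads can be lost.

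Of 37 genes for targeting to the endoplasmic reticulum, 13 were lower (35.1%) and 2 higher (5.4%), beside 10.6% and 10.2% of all genes. Members were SRP14 of the signal recognition particle at -0.27 ± 0.04 and the insertion ATPase GET3 at -0.30 ± 0.05. With the covariate 3 were lower, beside 1105 of all 23184 genes. The knockdown alone had 10 lower and 2 higher against the control. Unfolded protein response genes were more often higher, 12 of 34 (35.3%) against 4 lower (11.8%), beside 10.2% and 10.6% of all genes (list median 0.13). The counts were 10 against 3 with the covariate, and 12 against 3 for siRSAD2 alone. The chaperone HSPA5 rose by 0.32 ± 0.04 and XBP1 by 0.42 ± 0.05. Of 38 ATF4 and amino acid response genes 17 were higher (44.7%) and 7 lower (18.4%), beside 10.2% and 10.6% of all genes, with a median of 0.12. With the covariate 8 were higher and 3 lower (median 0.064). CHAC1, which breaks down glutathione, rose by 1.10 ± 0.16, the cystine transporter SLC7A11 by 0.70 ± 0.06 and DDIT3, the factor CHOP, by 0.53 ± 0.10.

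SLC3A2, the heavy chain that carries SLC7A11 and other amino acid transporters to the membrane, was 1 of the 6 genes whose step from siRSAD2 passed with the covariate. It measured 89.3, 92.3 and 87.8 CPM in the control, 75.4, 77.3 and 78.0 CPM with siRSAD2 and 106 CPM in each H1047R library (step 0.46 ± 0.05, 0.38 ± 0.08 with the covariate). NUPR1, another stress factor of the list, fell by 0.72 ± 0.09 on the log2 scale, and ATF4 itself by 0.22 ± 0.04. The fall of ATF4 and the net rise of SLC3A2 (0.24) did not pass with the covariate (edgeR adjusted p = 0.0628 and 0.222).

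The remaining lists were mixed or small. Of 40 nuclear-encoded respiratory chain genes 14 were lower (35%) and 2 higher (5%), beside 10.6% and 10.2% of all genes (list median -0.07). The falls were led by SDHD (-0.81 ± 0.07) and UQCRB (-0.65 ± 0.08). With the covariate 8 were lower (median -0.13), and the knockdown alone had 14 lower (median -0.15). Of 15 mitochondrially encoded genes MT-ATP8 (0.77 ± 0.12) and MT-ND4L (0.42 ± 0.12) were higher and the ribosomal RNA MT-RNR2 lower (-0.45 ± 0.08), and MT-ND4L did not pass with the covariate (edgeR adjusted p = 0.0827). The list median of -0.21 turned to 0.07 with the forward-share covariate, and the mitochondrial share of counts was 4.35 ± 0.175% in the control and 3.94 ± 0.3% in the combined state (SD, n = 3). Of 39 lysosome genes 11 were lower (28.2%) and 3 higher (7.69%), beside 10.6% and 10.2% of all genes, and 8 and 2 with the covariate. Beside LAPTM4A the membrane protein SCARB2 fell by 0.67 ± 0.04. Hypoxia and glycolysis genes had 7 higher and 7 lower of 38 (18.4% each, beside 10.2% and 10.6% of all genes, and 4 and 6 with the covariate), among them the mitophagy receptor BNIP3L at -0.94 ± 0.05. NRF2 targets had 7 higher (25.9%) and 4 lower (14.8%) of 27, beside 10.2% and 10.6% of all genes, and 3 and 2 with the covariate. Small RNA machinery had 2 higher (15.4%) and 3 lower (23.1%) of 13, beside the same shares of all genes, with AGO1 at -0.25 ± 0.05. The covariate left 1 higher and 2 lower.

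Sums of epithelial and of stromal markers did not overlap between the groups. The 17 epithelial markers summed to 2373 to 2408 CPM in the control and 1950 to 2069 CPM in the combined state, where KRT8 fell by 0.39 ± 0.05 and KRT19 by 0.22 ± 0.05 on the log2 scale. The 15 stromal markers summed to 7870 to 8268 and 7190 to 7335 CPM. Of these 8 were lower (53.3%) and 3 higher (20%), beside 10.6% and 10.2% of all genes (6 and 3 with the covariate). The median of that list was -0.17, and 0.02 with unstranded counts. KRT14 was listed at 0 in all 3 control libraries and at 0.0505 to 0.208 CPM in the combined state.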

How the data were processed

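RNA sequencing libraries of 12Z cells were made from 500 ng of total RNA with an mRNA kit. The authors trimmed adapters (cutadapt, Trim Galore), ran FastQC and let STAR align the reads to hg38 and tally them per gene; the deposited values are these raw counts, with no normalization. Tool versions were not stated, and the annotation release named carries a mouse number although the identifiers are human. Reverse-stranded counts were used. Forward and unstranded counts served to compute strand shares and 1 alternative. Of 60617 identifiers, 60357 matched GENCODE 44. The 4 summary entries (unmapped, multimapping, outside genes, ambiguous) took 22.2 to 30.5% of read pairs and were kept apart.

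The 23184 genes that averaged 1 count or more were fitted over all 15 libraries at once, each group having its own term (edgeR 4.0.16 under R 4.3.3), by TMM scaling, the robust quasi-likelihood F test and Benjamini-Hochberg adjustment at 0.05. The fit left 10 residual degrees of freedom, with a common biological coefficient of variation of 0.0571. CPM was scaled with the TMM factors, and SE is the log2 change over the square root of F. Gene counts were 16.1 to 39.7 M per library. Promoters and motif shares come from RefSeq on GRCh38.p14.

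The comparison, its gene lists (30 lists, 1012 of 1015 entries matched) and the naming rule were chosen with earlier results of these data known. Named genes were RSAD2, PIK3CA, the 8 largest rises and falls of protein-coding genes past the threshold with at least 1 CPM and groups apart, the 3 largest by CPM difference, the 2 smallest p per list, and 4 rises and 4 falls from siRSAD2 alone. Further list members were named after their values were seen, to describe a list. Some list members, 8 of them picked by this rule, are counted but not reported by name here. Alternatives were DESeq2 1.42.0, RLE factors, other filters, a threshold of 0.001, unstranded counts, only the compared groups, the forward-strand share as covariate, each library left out, and a replicate block. A term for libraries above 6% forward share and the removal of 1 insulin library were added after seeing the data, as was the fit of siRSAD2 alone against the control without the library of replicate 3.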

Additional observations from a re-analysis of the deposited data

Results flagged for a closer look

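The forward-strand counts lie outside the main measurement. The lowest forward-strand share in the siRSAD2 H1047R vehicle libraries was 6.189%, above the highest of the control libraries, 5.87%. Over unstranded counts the difference was 0.37 percentage points, against 0.359 over stranded counts. The part of this difference in the expression results was not tested. Groups of 3 libraries were not tested for outlying samples.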

How the results depend on the processing

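Against the control, 4831 calls became 2041 at an adjusted p of 0.001, 2162 with the forward-strand share as covariate and 1215 with a term for libraries above 6% forward share, added after seeing the data. That term rests on 1 library, the third of siRSAD2 with empty plasmid and insulin, the only one whose group holds both kinds. The other fits gave 4493 (unstranded counts) to 6140 calls (only the compared groups), leaving out 1 library of the compared groups gave 3740 to 4195, and leaving out that insulin library gave 5019. Against siRSAD2 alone, 251 calls became 17 at 0.001, 385 with DESeq2, 575 without a filter on low counts, 765 with only the compared groups, 6 with the covariate, 4 with the forward-share term and 418 without that insulin library, while leaving out 1 library gave 56 to 212. The causes were not tested. Beside the sign changes given next, 13 list medians moved by more than the members' median SE, among them ribosome biogenesis, from -0.015 to 0.069 with the term, and YAP and TEAD targets at 0.073 with the covariate and 0.085 with the term. Sign changes were RPS23 at 0.17 and GABARAP at -0.12 with unstranded counts, GABARAP at -0.069 with the forward-share term, the stromal median at 0.018 with unstranded counts, and the mitochondrially encoded median at 0.067 and 0.28 with the covariate and the term. RSAD2 did not pass with the term (-2.30, edgeR adjusted p = 0.244). Of the changes of single genes against the control under all alternatives, 1106 kept direction and side of the threshold, 38 lost and 6 gained significance, and 3 changed sign.

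Same-numbered libraries of siRSAD2 alone and of the combined state had correlations of deviations of -0.0117, 0.0196 and -0.042. So few libraries cannot settle whether the numbers pair them. The fit with a replicate block gave 1037 calls against 765 without it on the same libraries. The control shares no replicate number with the combined state. The RSAD2 values rest on 13 to 88 counts per library in the control and the combined state, and on only 20, 2 and 6 counts in siRSAD2 alone.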
